A study of Mus musculus with 36 samples.

Results

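The comparison described here sets the cerebellar response to mutations of the P/Q-type calcium channel itself against the response to loss of Cacng2. For each probe set, the effect of a line was the log2 signal in -/- minus that in +/+ mice, and the difference of effects was the mean of the Tg and Lh effects minus the Stg effect. It was computed on the 18 cerebellum arrays of a series of 36, chosen by tissue label and by no measured value. Each of 6 groups, Tg-/-, Tg+/+, Lh-/-, Lh+/+, Stg-/- and Stg+/+, had 3 arrays, and the 18 forebrain arrays of the same design served as a second set. The series measured total RNA of mouse forebrain and cerebellum on 1-colour Affymetrix arrays with 45101 probe sets. Each line has its own +/+ group, so the 3 effects share no control samples. The labels call every animal a mutant mouse and give neither ages nor strains. They do not say that the replicates are separate animals, so p-values measure only the spread between these samples. The symbols are read as tottering (Tg, a change in Cacna1a), lethargic (Lh, in Cacnb4) and stargazer (Stg, in Cacng2), which the labels do not spell out.

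Cacna1a encodes the pore-forming subunit of P/Q-type channels, which carries most of the calcium current of Purkinje cells and triggers transmitter release at many synapses. Cacnb4 encodes a cytoplasmic beta subunit that helps the pore reach the membrane and sets its gating. Cacng2 (stargazin) was first described as a channel gamma subunit, yet it is best known for carrying AMPA-type glutamate receptors to the synapse, in cerebellum above all in granule cells. All 3 mouse mutants are known for ataxia and absence seizures. The comparison therefore asks which transcripts the pore and beta subunit mutations share that loss of Cacng2 lacks, and the reverse.

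The arrays read as cerebellum. Gabra6, a granule cell receptor subunit, lay between 5222 and 9171 in cerebellum and at or below 178 in forebrain, and the cortical factor Tbr1 was at or below 12.01 in cerebellum. Each array correlated with the remaining 17 at a mean r that ran from 0.951 to 0.964. Prl, a pituitary hormone transcript, was highest on 3 +/+ arrays, with 297 in Lh+/+ replicate 3, 247 in Stg+/+ replicate 2 and 108 in Stg+/+ replicate 1. Gh, another such transcript, was highest in Stg+/+ replicate 2 (230) and next in a -/- array, Stg-/- replicate 3 (126). It was at 90.1 in Lh+/+ replicate 3 and 74.4 in Stg+/+ replicate 1. By Xist and the Y-linked Eif2s3y, all Tg arrays read male, replicate 3 of both Lh groups read female, and replicates 1 and 2 of both Stg groups read female. Same-numbered -/- and +/+ arrays of a line were thus of the same sex, while the lines differed in their mix of sexes. No fit held sex as a term of its own. Within Lh and Stg, sex changed with the run of records, a stretch of consecutive sample records. A block for line and run, an alternative setting in the closing section, thus also took up sex within a line. Each run of a line held as many -/- as +/+ arrays, so this block left the differences unchanged and altered only their spread. That its 241 called probe sets held all 75 of the main fit given below thus says nothing about sex. In replicate 3, where Lh was female and Stg male, Th had 475 in Lh-/- against 37.2 in Lh+/+ mice and 54.2 in Stg-/- against 29.0 in Stg+/+ mice. Nos1 there had 386 in Lh-/- against 284 in Lh+/+ mice and 1425 in Stg-/- against 459 in Stg+/+ mice. These are single arrays and chosen genes, and the part of sex in the results was not tested. Where leaving out the 3 arrays of high Prl ends the call of a named gene, the value without them is given with the gene. That fit keeps Stg-/- replicate 3 despite its Gh signal. It leaves 1 Stg+/+ array, whose spread is taken from the other groups, and the part of pituitary RNA in the results was not tested further.

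The mutated genes were read first. Cacng2 had 4.59, 4.72 and 2.43 in Stg-/-, near the constant of 2.98 added before log2, against 473, 841 and 595 in Stg+/+ mice. In the channel-subunit lines Cacng2 was level, at 606 ± 93.0 in Tg-/- and 612 ± 176 in Tg+/+ mice, and 629.7 ± 93.6 in Lh-/- and 657 ± 74.7 in Lh+/+ mice (SD, n = 3 each). The difference of effects was 6.49 (SE 0.26, adjusted p = 3.37e-11), and another Cacng2 probe set gave 4.52, while the last, at low signal, gave 1.53 without passing (adjusted p = 0.438). With Stg-/- signals this low the size depends on the added constant, and 6.49 ran between 4.16 and 6.99 over the alternative settings and left-out arrays, passing in each. Cacnb4 signals on its called probe set were 438, 387 and 388 in Lh-/- against 750.2, 613 and 835 in Lh+/+ mice, an Lh effect of -0.84 (adjusted p = 0.00763, where 0.155% of probe sets were called in Lh). The other Cacnb4 probe sets had Lh effects of -0.62 and -0.61 without passing (adjusted p = 0.113 and 0.0814). Cacna1a had Tg effects of -0.28, 0.13 and 0.24 on its 3 probe sets, none passing. For neither Cacnb4 (-0.27, -0.01 and 0.10) nor Cacna1a (-0.76, -0.07 and -0.01) did the difference of effects pass.

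Across the cerebellum, 75 of 27022 probe sets, or 0.278%, differed between the channel-subunit lines and Stg at an adjusted p below 0.05. The difference was positive for 43 (0.159% of those tested) and negative for 32 (0.118%), in 57 named genes, and 2419 probe sets had an unadjusted p below 0.05. The 75 fell into 3 classes by the unadjusted p of each line's own effect, with 0.05 as the limit. Both Tg and Lh passed it in the same direction for 18 probe sets, 10 of them with a positive and 8 with a negative difference. Stg alone passed it for 30, of which 20 had a positive difference, that is a lower level in Stg-/- than in Stg+/+ mice. For the other 27, Stg and Lh passed for 13, Stg and Tg for 11, and Tg alone for 3. The mean effect of Tg and Lh was itself called for 207 probe sets (0.766%), while the Tg and Lh effects differed from each other for 11 (0.0407%). Leaving out the 3 arrays of high Prl gave 57 called probe sets, 27 of them among the 75, and leaving out Stg+/+ replicate 1 alone gave 42. Of the 18 shared probe sets 5 remained without the 3 arrays, and of the 30 of Stg alone 7. Of the 46 called probe sets named here, 29 no longer passed without them and 0 changed sign.

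**Figure D1:**
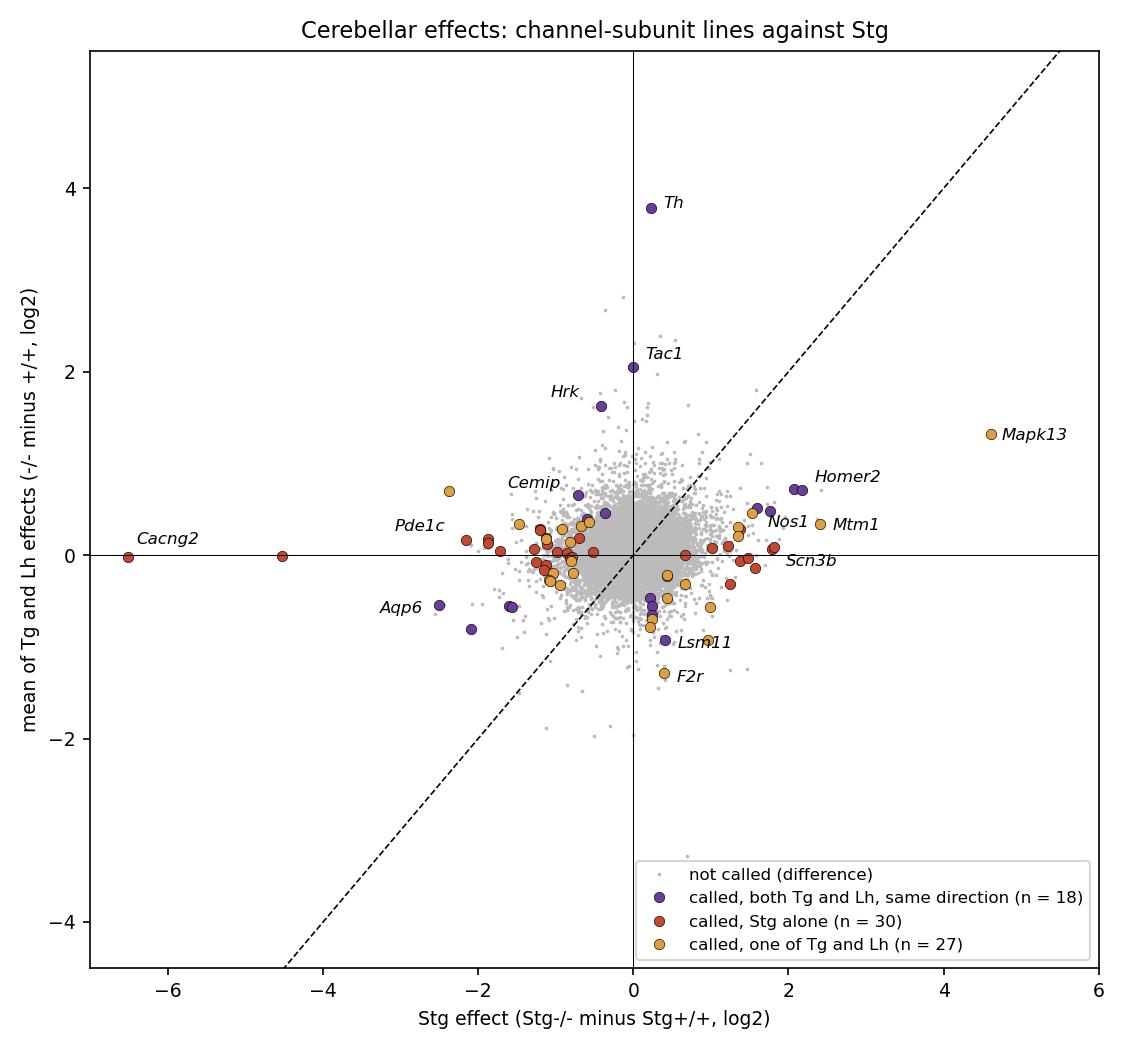
Each point is 1 of 27022 probe sets, with the Stg effect (log2, Stg-/- minus Stg+/+) on the x axis and the mean of the Tg and Lh effects (log2, -/- minus +/+) on the y axis. On the dashed line both are equal. Th, Tac1 and Hrk lie high near an x of 0, Cacng2 lies far left near a y of 0, and Mapk13, Homer2, Nos1 and Aqp6 lie on the same side of 0 on both axes but nearer the x axis.

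Among genes that both channel-subunit lines changed and Stg did not pass, Th, tyrosine hydroxylase, whose step limits the rate of catecholamine production, had the largest difference. Th had 551, 606 and 617 in Tg-/- against 31.3, 30.5 and 29.9 in Tg+/+ mice. The Lh line had 562, 568 and 475 in Lh-/- against 49.1, 57.2 and 37.2 in Lh+/+ mice. For Stg, Th had 44.9, 46.4 and 54.2 in Stg-/- against 39.6, 58.9 and 29.0 in Stg+/+ mice. All 6 -/- arrays of the channel-subunit lines lay above 470 and all 12 others below 60, and the Stg groups overlapped. The Th effect was 4.15 in Tg (SE 0.20), 3.42 in Lh (SE 0.20) and 0.23 in Stg (SE 0.20, adjusted p = 0.764), and the difference of effects was 3.55 (SE 0.24, adjusted p = 1.80e-07). Its call held in all 10 alternative settings and with any 1 of the 18 arrays left out, between 2.94 and 3.78. In such bulk samples, more Th-expressing cells and more Th RNA per cell cannot be told apart. Of 20 brainstem and midbrain markers, 4 were bright enough to test, none was called, and all 4 had a positive difference (median 0.55, with 0.34 in Tg, 0.33 in Lh and -0.19 in Stg). Their summed signal over 17 genes was 436 to 522 in Tg-/- and 375 to 464 in Tg+/+ mice, 575 to 663 in Lh-/- and 385 to 542 in Lh+/+ mice, and 465 to 499 in Stg-/- and 483 to 510.1 in Stg+/+ mice. The -/- and +/+ ranges overlapped in Tg and Stg and lay apart in Lh, and their part in the Th result was not tested. The other 7 measured genes of catecholamine synthesis and transport had differences between -0.24 and 0.12 and none was called. Of all genes, with 1 probe set per gene, 0.402% were called. Among the other 7, Ddc, the next enzyme of the pathway, was at 0.10, and the vesicle enzyme Dbh at -0.01.

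Th and the granin gene Scg2, described further on, were the 2 of 49 called genes with a RefSeq promoter window that held the letters of the cyclic AMP response element, TGACGTCA, a motif that reads the same on both strands. The window runs from 250 bases before to 50 after each annotated start, and the share was 4.08%, against 549 of 27025 genes, or 2.03%. The motif was chosen after the expression values were seen, and 49 of the 57 called genes matched a window. Both windows are shown, since these are neuronal genes that the channel-subunit lines raised, with the motif in capitals, from GRCm38.p6 on the minus strand. In Th the motif starts 45 bases before the start site, and in Scg2 68 bases before it. The match describes the letters and says nothing about a factor there.
Th (chr7:142899946-142900245, minus strand): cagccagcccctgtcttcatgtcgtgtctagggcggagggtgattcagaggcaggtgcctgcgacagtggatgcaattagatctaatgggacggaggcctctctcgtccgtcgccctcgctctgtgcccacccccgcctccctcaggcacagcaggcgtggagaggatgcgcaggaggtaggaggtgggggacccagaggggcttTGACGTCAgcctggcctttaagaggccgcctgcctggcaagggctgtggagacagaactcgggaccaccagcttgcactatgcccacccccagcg
Scg2 (chr1:79439977-79440276, minus strand): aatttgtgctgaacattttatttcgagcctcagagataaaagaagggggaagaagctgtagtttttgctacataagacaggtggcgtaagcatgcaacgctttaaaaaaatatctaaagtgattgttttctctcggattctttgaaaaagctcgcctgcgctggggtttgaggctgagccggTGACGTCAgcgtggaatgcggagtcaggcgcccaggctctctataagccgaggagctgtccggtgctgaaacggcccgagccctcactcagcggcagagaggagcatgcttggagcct

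Tac1, the precursor of substance P, and Hrk, a BH3-only protein that promotes cell death, followed the same pattern at lower levels. Tac1 had 121, 122 and 109.8 in Tg-/- against 19.2, 15.9 and 25.0 in Tg+/+ mice, and 88.5, 178 and 132 in Lh-/- against 38.7, 41.5 and 32.6 in Lh+/+ mice. Tac1 signals were 47.5, 22.7 and 25.0 in Stg-/- against 29.8, 35.5 and 26.2 in Stg+/+ mice, with overlap. The difference of effects was 2.06 (SE 0.34, adjusted p = 0.00764), with effects of 2.40 in Tg, 1.69 in Lh and -0.01 in Stg (SE 0.28). Hrk read 144, 149 and 201 in Tg-/- against 46.8, 53.8 and 55.5 in Tg+/+ mice, and 158, 146 and 123 in Lh-/- against 42.4, 66.9 and 26.5 in Lh+/+ mice. Hrk in Stg had 44.0, 74.8 and 52.9 in Stg-/- against 71.1, 91.3 and 66.8 in Stg+/+ mice, and the groups overlapped. Its difference was 2.05 (SE 0.32, adjusted p = 0.00420), from effects of 1.59, 1.67 and -0.42. A dimmer Hrk probe set had effects of 1.07 in Tg, 0.70 in Lh and -0.18 in Stg, with a difference of 1.07 that did not pass (adjusted p = 0.364). Both calls held with any 1 array left out. With the 3 arrays of high Prl left out, the difference was 1.82 for Tac1 (adjusted p = 0.125) and 1.72 for Hrk (adjusted p = 0.0640).

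Among the falls shared by Tg and Lh, Calb2 (calretinin), a calcium buffer of granule cells and unipolar brush cells, was the brightest. Calb2 had 2121, 1640.2 and 1857 in Tg-/- against 2254, 2443 and 2795 in Tg+/+ mice, and 1572, 1670.4 and 1165 in Lh-/- against 3117, 2620.0 and 2385 in Lh+/+ mice. Its signals were 2787, 3677 and 2795 in Stg-/- against 2449, 2622 and 2696 in Stg+/+ mice. It was lower in both channel-subunit -/- groups without overlap, while in Stg each -/- array lay above each +/+ array. Of all probe sets, 2.51% had no overlap in both Tg and Lh, in any direction, and 15.6% had none in Stg. The shared class was chosen by p on these same arrays. The Calb2 difference was -0.90 (SE 0.17, adjusted p = 0.0316), with effects of -0.42, -0.89 and 0.24. The Stg effect did not pass (adjusted p = 0.592), and the call held with 9 of the 18 arrays left out in turn. Beside Calb2, the summed signal of 6 unipolar brush cell genes, Calb2 among them, was 4504 to 4813 in Tg-/- and 5399.95 to 6016 in Tg+/+ mice. That sum was 4038 to 4518 in Lh-/- and 5421 to 6315 in Lh+/+ mice, and 5519 to 6659 in Stg-/- and 5279.7 to 5634 in Stg+/+ mice. Calb2 itself makes up a large part of this sum, so the sum is not a reading apart from Calb2. The part of cell numbers in the Calb2 result was not tested. Of the 4 unipolar brush cell genes tested, 0 had a difference above 0 and the median was -0.28. Calb2 was the called one, where 0.402% of all genes were called, and Eomes was at -0.06 and Plcb4 at -0.11.

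Plpp6, a lipid phosphatase gene, had 253, 188 and 228 in Tg-/- against 347, 306 and 296 in Tg+/+ mice, and 192, 213 and 192 in Lh-/- against 285, 293 and 325 in Lh+/+ mice. Plpp6 in Stg had 323, 326 and 345 in Stg-/- against 251, 281 and 313 in Stg+/+ mice. It was lower in -/- mice of both channel-subunit lines and its difference was -0.79 (SE 0.15, adjusted p = 0.0217), a size that another Plpp6 probe set shared without passing (-0.76, adjusted p = 0.112). Lsm11, a component of the complex that processes histone messages, had effects of -1.38 in Tg, -0.45 in Lh and 0.41 in Stg, a difference of -1.33 (SE 0.24, adjusted p = 0.0187). Its Stg+/+ arrays, at 92.9, 94.7 and 139, overlapped Stg-/- mice, at 188, 110.0 and 141. They lay near Tg-/- mice, at 95.0, 77.7 and 96.0, and below Tg+/+ mice, at 246, 223 and 245. The last of these 7 probe sets, which has no single gene, had a difference of -0.68 (SE 0.14, adjusted p = 0.0371). Without the 3 arrays of high Prl, Calb2 was at -0.88 (adjusted p = 0.149), and Plpp6 at -0.60 and Lsm11 at -0.98 (adjusted p = 0.223 each).

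In 3 genes the channel-subunit lines and Stg moved in opposite directions, each line at an unadjusted p below 0.05. Not every such effect passed adjustment, and 2 of the 3 genes belong to dense-core vesicles. Scg2 (secretogranin II), a granin of the vesicle core and a peptide precursor, had 1453, 1286 and 1601 in Tg-/- against 1124, 1160.4 and 1206 in Tg+/+ mice, and 1659, 1584 and 1844 in Lh-/- against 1344, 1039.8 and 1321 in Lh+/+ mice. In Stg the order turned, with 655, 552 and 691 in Stg-/- against 979.7, 847 and 1043 in Stg+/+ mice. In none of the 3 lines did -/- and +/+ mice overlap, which held for 14.0% of all probe sets in Tg, 12.7% in Lh and 15.6% in Stg. The effects were 0.31 in Tg (adjusted p = 0.445), 0.46 in Lh (adjusted p = 0.158) and -0.60 in Stg (adjusted p = 0.0101). The difference was 0.98 (SE 0.14, adjusted p = 0.00265), and it passed under every alternative setting and with each array left out. The mean effect of Tg and Lh on Scg2 was 0.39 (SE 0.08, adjusted p = 0.0324).

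Ptprn (IA-2), a membrane protein of the same vesicles, had 368, 311 and 341 in Tg-/- against 268, 275 and 253 in Tg+/+ mice, and 398, 361 and 349 in Lh-/- against 257, 255 and 229.9 in Lh+/+ mice. Ptprn in Stg had 179, 195 and 186 in Stg-/- against 278, 218 and 231 in Stg+/+ mice. The groups of no line overlapped. The effect was 0.35 in Tg (adjusted p = 0.253) and 0.57 in Lh (adjusted p = 0.0363). The Stg effect was -0.37 and did not pass over all probe sets (adjusted p = 0.133), while the difference did, at 0.83 (SE 0.13, adjusted p = 0.00608); without the 3 arrays of high Prl it was 0.74 (adjusted p = 0.0860). Cemip, which breaks down hyaluronan of the extracellular matrix, had 227, 275 and 252 in Tg-/- against 215, 224 and 187 in Tg+/+ mice, and 295, 315 and 307 in Lh-/- against 158, 127 and 153 in Lh+/+ mice. Cemip had 141, 116 and 129.9 in Stg-/- against 202, 211 and 226 in Stg+/+ mice. It was higher in both channel-subunit -/- groups and lower in Stg-/- mice, without overlap. The effects were 0.27 in Tg (adjusted p = 0.642), 1.06 in Lh (adjusted p = 0.000373) and -0.71 in Stg (adjusted p = 0.00360). Its difference of 1.37 (SE 0.15, adjusted p = 0.000153) passed under every alternative and with each array left out. A dim second Cemip probe set gave 0.16 (adjusted p = 0.963).

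Among 18 measured neuropeptide and granin genes, Tac1 and Scg2 were called (2 of 18, against 49 of 12201 genes or 0.402% with 1 probe set per gene), both with a positive difference. The other 16 were not called. Of these, Vgf, an activity-regulated peptide precursor, had 1.42 (adjusted p = 0.10), Pcsk1, a prohormone convertase, 0.67 (adjusted p = 0.536) and the granin Chgb 0.52 (adjusted p = 0.152). The median of the list was -0.04, beside -0.01 for all genes, and 8 of 18 lay above 0.

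**Figure D2:**
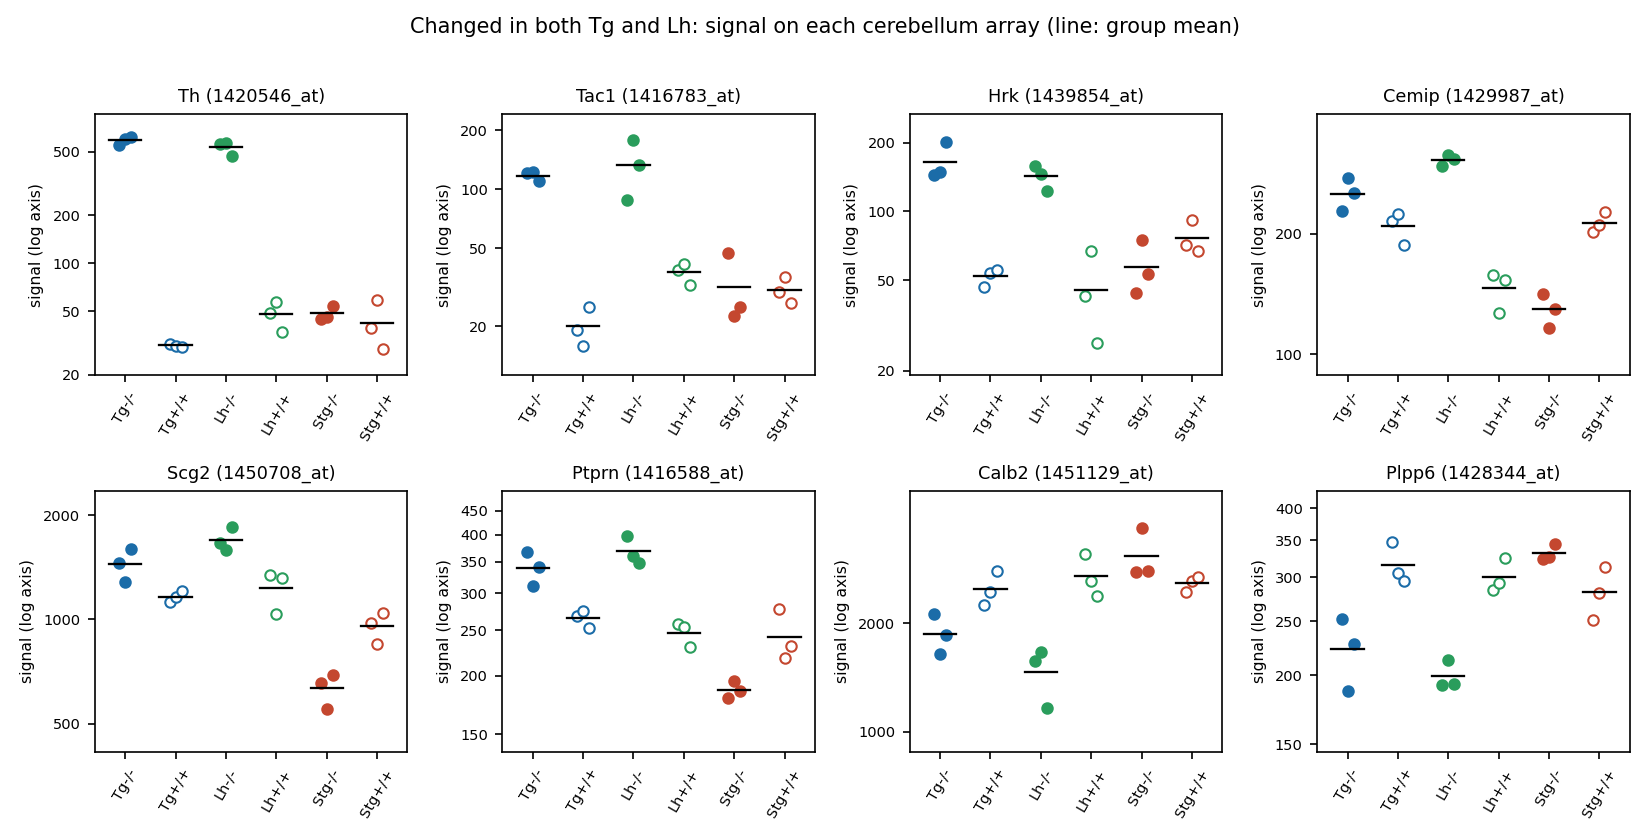
Signal on each of the 18 cerebellum arrays (log axis) for 8 genes that Tg and Lh changed in the same direction, with filled points for -/- and open points for +/+ arrays and a line at each group mean. Th, Tac1 and Hrk are high in Tg-/- and Lh-/- mice and low in the other 4 groups, Cemip, Scg2 and Ptprn are in addition low in Stg-/- mice, and Calb2 and Plpp6 are low in Tg-/- and Lh-/- mice.

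The remaining 8 of the 18 shared probe sets moved in the same direction in all 3 lines, and the difference came from a larger effect in Stg. Nos1, the neuronal nitric oxide synthase of granule cells and interneurons, had 529, 491 and 495 in Tg-/- against 362, 290.2 and 313 in Tg+/+ mice, and 469, 480.1 and 386 in Lh-/- against 397, 356 and 284 in Lh+/+ mice. Nos1 had 1475, 1291 and 1425 in Stg-/- against 447, 473 and 459 in Stg+/+ mice, a level that no other group reached. The effects were 0.65 in Tg, 0.37 in Lh and 1.60 in Stg, and the difference was -1.09 (SE 0.15, adjusted p = 0.00150). Another Nos1 probe set gave -1.28 (adjusted p = 0.0313) and the last -1.54 without passing (adjusted p = 0.0738). The Nos1 call at -1.09 passed in every alternative and with each array left out.

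Homer2, a scaffold of metabotropic glutamate receptors, had 163 ± 21.5 in Tg-/- and 103 ± 9.86 in Tg+/+ mice, and 160.4 ± 41.3 in Lh-/- and 91.3 ± 18.6 in Lh+/+ mice (SD, n = 3 each). In Stg it was 688 ± 114 in Stg-/- and 152 ± 43.4 in Stg+/+ mice. The effects were 0.64 in Tg and 0.78 in Lh, set against 2.18 in Stg, for a difference of -1.47 (SE 0.26, adjusted p = 0.0135), and another probe set gave -1.36 (adjusted p = 0.0135). Leaving out Stg-/- replicate 3 or Stg+/+ replicate 1 ended the call at -1.47, and leaving out the 3 arrays of high Prl ended the one at -1.36 (then -1.41, adjusted p = 0.0971). Of 11 metabotropic receptor and Homer genes, Homer2 was the called one, where 0.402% of all genes were called. The median difference of the 11 was -0.22 and 2 lay above 0.

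On the falling side, Ncald (neurocalcin delta), a neuronal calcium sensor, had 773, 646 and 640.3 in Tg-/- against 981, 828 and 959 in Tg+/+ mice, and 537, 507 and 484 in Lh-/- against 757, 825 and 903 in Lh+/+ mice. Ncald had 213, 280.1 and 239.6 in Stg-/- against 734, 806 and 642 in Stg+/+ mice, the lowest of the 6 groups. Its effects were -0.43, -0.69 and -1.57 for Tg, Lh and Stg in turn, a difference of 1.0 (SE 0.14, adjusted p = 0.00243), with 1.05 on another probe set (adjusted p = 0.00420) and 0.52 on the last (adjusted p = 0.589). Without the 3 arrays of high Prl the 2 called probe sets were at 0.86 (adjusted p = 0.0706) and 0.93 (adjusted p = 0.113). Aqp6, an aquaporin, had 209 ± 21.8 in Tg-/- and 289 ± 73.8 in Tg+/+ mice, and 215 ± 27.0 in Lh-/- and 341 ± 69.1 in Lh+/+ mice. In Stg-/- mice Aqp6 was at 39.8 ± 2.57, against 247 ± 73.0 in Stg+/+ mice (SD, n = 3 each). The difference was 1.97 (SE 0.24, adjusted p = 0.000619), and 3 further Aqp6 probe sets gave 1.37, 1.29 and 0.04, none passing. The mean effect of Tg and Lh on Aqp6, at -0.54, was not called (adjusted p = 0.0794). A probe set with no single gene had effects of -0.58, -1.02 and -2.09, a difference of 1.29 that was 1.24 without the 3 arrays (adjusted p = 0.131).

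Genes with a large Stg effect and a smaller one in 1 channel-subunit line included Mapk13, the p38-delta stress kinase, which had the most negative difference of all. Mapk13 had 59.9, 31.1 and 45.2 in Tg-/- against 16.3, 3.96 and 8.19 in Tg+/+ mice. Lh gave 49.97, 47.9 and 26.4 in Lh-/- against 32.3, 24.1 and 20.8 in Lh+/+ mice, which overlapped. In Stg it had 363, 173 and 425 in Stg-/- against 13.8, 4.94 and 11.4 in Stg+/+ mice, far apart. The effects were 2.04 in Tg, 0.60 in Lh and 4.61 in Stg, and the difference was -3.29 (SE 0.51, adjusted p = 0.00420). Several Tg+/+ and Stg+/+ signals lie near the added constant, and the difference ran between -3.68 and -2.38 over the alternative settings and left-out arrays. Leaving out the 3 arrays of high Prl gave -3.14 (adjusted p = 0.0640). Its relative Mapk12 (p38-gamma) went the other way, with a Stg effect of -0.86 and a difference of 0.88 (SE 0.15, adjusted p = 0.0135), which was 0.81 without the 3 arrays (adjusted p = 0.134). Of 16 measured genes of these kinase cascades these 2 were called, where 0.402% of all genes were called. The remaining 14 were not, among them Mapk14 (p38-alpha) at 0.00 and Mapk11 (p38-beta) at 0.15.

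Sox4, a transcription factor of immature neurons, had effects of 0.43 in Tg, 0.18 in Lh and 1.35 in Stg, with 584, 505 and 700.4 in Stg-/- against 230.0, 239.9 and 219 in Stg+/+ mice. Its difference was -1.05 (SE 0.14, adjusted p = 0.00150), and 4 dimmer Sox4 probe sets lay between -1.97 and -1.15 without passing. Kcnk2 (TREK-1), a background potassium channel, had effects of 0.28, 0.14 and 1.35, with 305, 292 and 254 in Stg-/- against 102, 119.9 and 107 in Stg+/+ mice, for a difference of -1.14 (SE 0.15, adjusted p = 0.00150). Mtm1, a phosphoinositide phosphatase, had 864, 629 and 913 in Stg-/- against 120.0, 109 and 239 in Stg+/+ mice, while its Tg effect was -0.21 and its Lh effect 0.88. The Mtm1 difference was -2.08 (SE 0.36, adjusted p = 0.0134), the rest of its probe sets gave -1.20 (adjusted p = 0.111) and 0.33, and it was lost without Stg-/- replicate 3 or Stg+/+ replicate 1. Igsf3, an immunoglobulin superfamily protein, had effects of 0.30, 0.63 and 1.53 and a difference of -1.07 (SE 0.22, adjusted p = 0.0420), which held with 3 of 18 arrays left out in turn. Mtm1 was at -1.29 (adjusted p = 0.223) and Igsf3 at -1.24 (adjusted p = 0.112) without the 3 arrays of high Prl. Sox4 and Kcnk2 passed under every alternative and with each array left out.

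**Figure D3:**
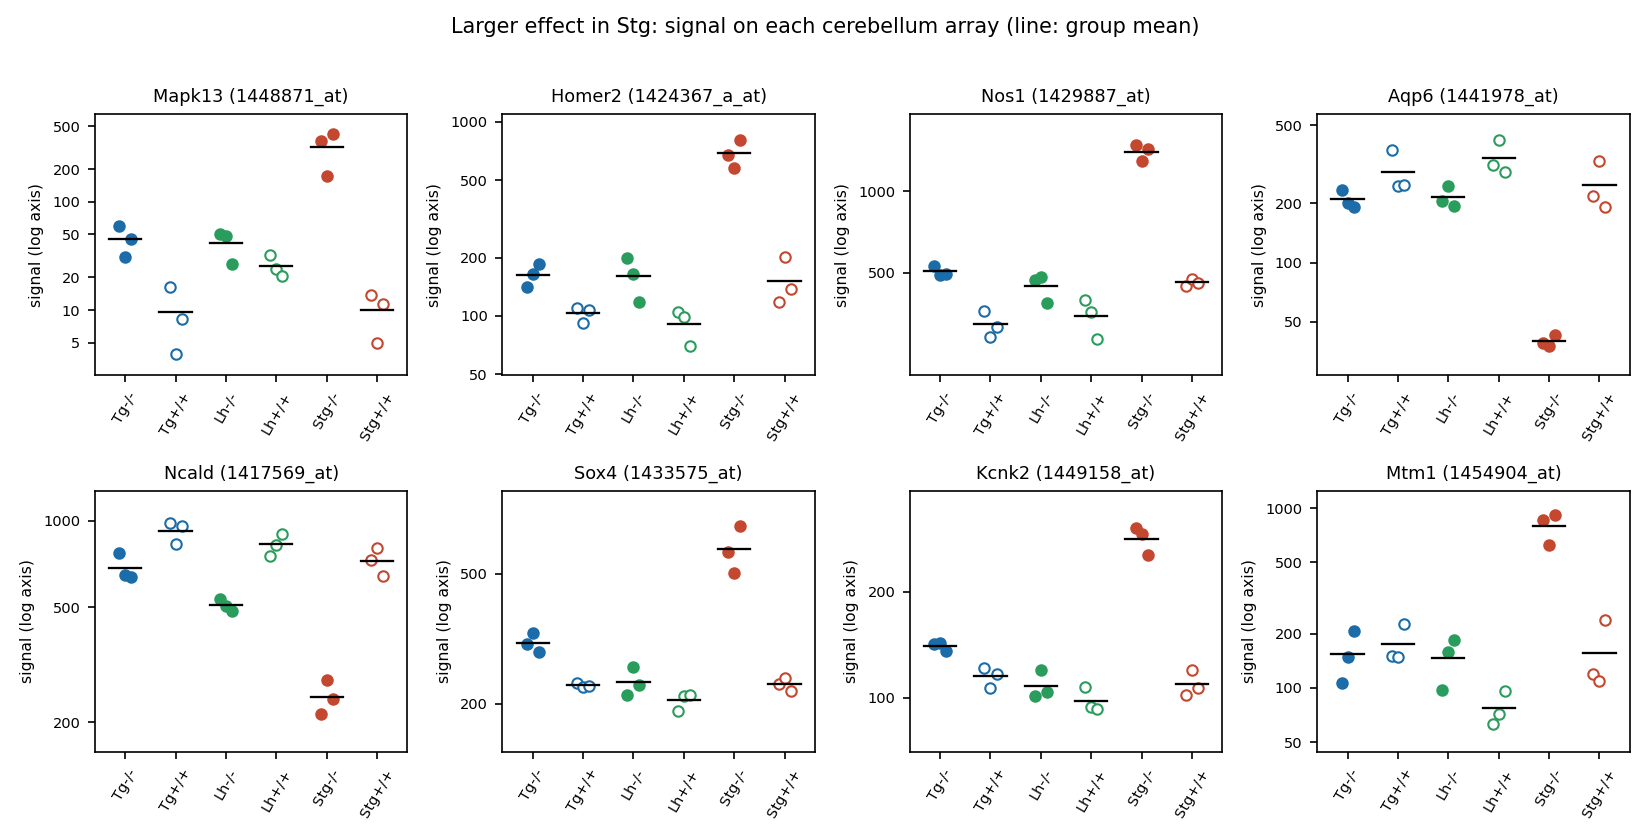
Signal on each cerebellum array (log axis) for 8 genes whose effect was larger in Stg than in the channel-subunit lines, with filled points for -/- and open points for +/+ arrays and a line at each group mean. Stg-/- arrays stand apart from all other groups, at 173 to 425 for Mapk13 and 37.8 to 42.7 for Aqp6.

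The 30 probe sets of Stg alone named 23 genes, with Cacng2 first. In 29 of the 30, the Stg-/- mean lay farther than the Stg+/+ mean from the mean of Tg+/+ and Lh+/+ mice. The exception was Cdh7, a cadherin. In the other classes the Stg+/+ mean was the farther one for 5 of the 18 shared probe sets and 6 of the remaining 27. Cdh7 was at 475 ± 78.1 in Tg-/- and 468 ± 32.5 in Tg+/+ mice, and at 110.3 ± 6.80 in Lh-/- and 122 ± 26.4 in Lh+/+ mice (SD, n = 3 each). It had 316, 269.9 and 322 in Stg-/- against 124, 114 and 108 in Stg+/+ mice. The Stg-/- level lay between those of the Tg and the Lh line. The difference for Cdh7 was -1.43 (SE 0.18, adjusted p = 0.000634), while its other probe sets gave 0.13 and -0.10, neither called.

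Pde1c, a calmodulin-dependent phosphodiesterase that breaks down cyclic nucleotides, followed Cacng2 by size of the difference among the genes of Stg alone. Pde1c had 224, 246 and 256 in Tg-/- against 172, 173 and 218 in Tg+/+ mice, and 162, 224 and 231 in Lh-/- against 185, 162 and 280.0 in Lh+/+ mice. In Stg it had 52.5, 29.8 and 60.3 in Stg-/- against 203, 155 and 170.5 in Stg+/+ mice. The Stg-/- arrays lay below all others, and the difference was 2.06 (SE 0.28, adjusted p = 0.00150). In total 4 of 6 Pde1c probe sets passed, at 1.81 to 2.33; the others were at 2.20 (adjusted p = 0.138) and 0.81 (adjusted p = 0.492). Without the 3 arrays of high Prl the probe set at 2.06 stayed called (2.13), and the others were at 1.84, 2.19 and 2.45 (adjusted p = 0.0673, 0.0598 and 0.0694). Of 20 calcium sensors and calmodulin-dependent enzymes, 3 had a called positive difference, Pde1c, Ncald and Vsnl1, against 0.402% of all genes with a call. Of the same 20, none was called in Tg, 4 in Lh and 6 in Stg, where 0.205% of all genes were called in Lh and 1.69% in Stg. Vsnl1 (visinin-like 1), another neuronal calcium sensor, had 1968, 2104 and 1677 in Stg-/- against 4135, 4006 and 3909 in Stg+/+ mice, a Stg effect of -1.07 beside -0.20 in Tg and -0.37 in Lh, and a difference of 0.79 (SE 0.14, adjusted p = 0.0135). Vsnl1 was at 0.79 (adjusted p = 0.0978) without the 3 arrays of high Prl. The median of the 20 was -0.01, and 10 lay above 0.

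Scn3b, a beta subunit of voltage-gated sodium channels, was the gene of Stg alone with the most negative difference. Scn3b had 204, 164 and 179 in Stg-/- against 64.7, 52.9 and 35.1 in Stg+/+ mice. The 12 Tg and Lh arrays lay between 31.8 and 63.6, and the difference was -1.73 (SE 0.28, adjusted p = 0.00703). The other 10 measured sodium and HCN channel genes were not called, where 0.402% of all genes were called. Kcnj3 (GIRK1), a G protein-gated potassium channel, had 338, 273 and 284 in Stg-/- against 620.2, 455 and 521 in Stg+/+ mice, and a difference of 0.80 (SE 0.15, adjusted p = 0.0240). A second Kcnj3 probe set gave 0.71 (adjusted p = 0.256) and the last -0.01, and the call was lost without any 1 of 6 arrays and without the 3 of high Prl (0.81, adjusted p = 0.0903). Among 27 potassium channel genes of the list used here Kcnj3 was the called one, against the same 0.402% of all genes. That list does not hold Kcnk2, a potassium channel gene called in the other direction (-1.14) and described above.

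Tyro3, a receptor tyrosine kinase, had 119, 94.8 and 143 in Stg-/- against 266, 231 and 392 in Stg+/+ mice and a difference of 1.35 (SE 0.22, adjusted p = 0.00606). Adamts10, a secreted metalloprotease, had 166, 191 and 192 in Stg-/- against 419.7, 392 and 397 in Stg+/+ mice, a Tg effect of 0.33 and a difference of 1.30 (SE 0.13, adjusted p = 3.90e-05). Ltbp2, a matrix protein of the latent TGF-beta binding family, had 55.5, 46.2 and 61.7 in Stg-/- against 211, 173 and 174 in Stg+/+ mice and a difference of 1.76 (SE 0.30, adjusted p = 0.0120), lost without Stg+/+ replicate 1. Ntng1 (netrin-G1), a membrane-bound axon guidance molecule, had 84.0, 78.0 and 69.0 in Stg-/- against 210.3, 184 and 136 in Stg+/+ mice and a difference of 0.99 (SE 0.19, adjusted p = 0.0238), lost without any 1 of 6 arrays. The LIM-domain protein Limd2 (1.21 and 1.5 on its 2 probe sets), the carbonic anhydrase Car4 (1.01) and the lipid-binding protein Osbpl3 (1.31) were lower in Stg-/- mice too, and the calls of Car4 and Osbpl3 held with 18 and 10 of the 18 arrays left out in turn. So were Tnfrsf12a (1.23), a TNF-family receptor, Ror1 (1.18), a receptor of Wnt signalling, and Hectd2 (1.01), whose calls held with 5, 4 and 3 of the 18 arrays left out in turn. Genes higher in Stg-/- mice were Nectin3 (-1.09), an adhesion molecule, Tcerg1l (-1.52) and the guanylate-binding protein Gbp6 (-1.55), held with 5, 14 and 3 of the 18. Without the 3 arrays of high Prl, Tyro3 (1.85) and Adamts10 (1.26) stayed called and so did 1 Limd2 probe set (1.21). The others named with them did not, with Ltbp2 at 1.54 (adjusted p = 0.112) and Ntng1 at 0.65 (adjusted p = 0.261). Limd2 on its other probe set was then at 1.2, Car4 at 0.94, Osbpl3 at 1.29, Tnfrsf12a at 0.93, Ror1 at 0.80 and Hectd2 at 1.16. On the other side Nectin3 was at -0.69, Tcerg1l at -1.68 and Gbp6 at -1.47, and the adjusted p of these 9 ran between 0.0903 and 0.315. Of 42 guidance and adhesion genes, Ntng1 had a called positive difference and Cdh7 and Nectin3 a called negative one, where 0.402% of all genes were called. The median of the 42 was 0.05 and 25 lay above 0.

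**Figure D4:**
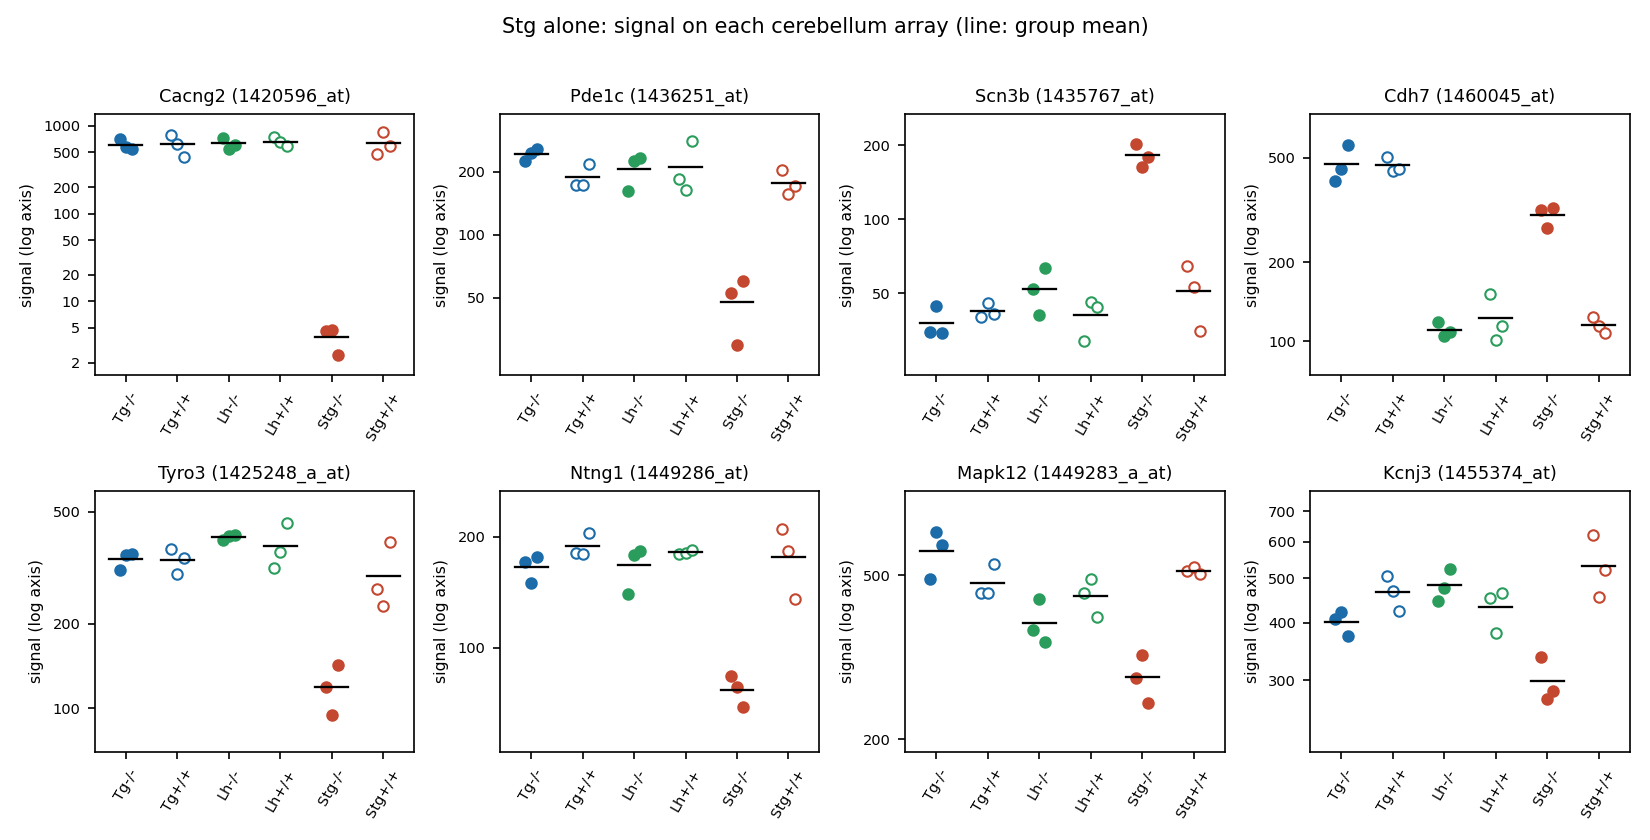
Signal on each cerebellum array (log axis) for 8 genes of Stg alone, with filled points for -/- and open points for +/+ arrays and a line at each group mean. Stg-/- arrays stand apart from the other 15 for Cacng2, Pde1c, Scn3b, Tyro3, Ntng1, Mapk12 and Kcnj3, whereas for Cdh7 they lie between the Tg and the Lh arrays.

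For 3 called probe sets the difference came from Tg, with neither Lh nor Stg past the unadjusted limit, and these were F2r, Ptp4a2 and, named after its value was seen, Itgb1bp1. F2r, the thrombin receptor, had 84.2, 112 and 108 in Tg-/- against 332, 508 and 546 in Tg+/+ mice. F2r in the other lines had 117, 94.0 and 95.0 in Lh-/- against 187, 123 and 115 in Lh+/+ mice, and 345, 499 and 481 in Stg-/- against 278, 353 and 376 in Stg+/+ mice. The Tg-/- arrays lay at the level of Lh-/- mice, and the difference was -1.67 (SE 0.26, adjusted p = 0.00420). The F2r effects were -2.13 in Tg, -0.44 in Lh and 0.39 in Stg. That of Lh missed the limit narrowly (unadjusted p = 0.0501). Another F2r probe set gave -1.60 without passing (adjusted p = 0.0738). Ptp4a2, a protein phosphatase, had 339 ± 27.2 in Tg-/- and 867 ± 39.8 in Tg+/+ mice. It had 545 ± 60.2 in Lh-/- and 579 ± 192 in Lh+/+ mice, and 344 ± 26.8 in Stg-/- and 291 ± 11.4 in Stg+/+ mice (SD, n = 3 each). Its difference was -0.94 (SE 0.19, adjusted p = 0.0398), while its 3 other probe sets were at -0.05, 0.23 and 0.24. Itgb1bp1, an integrin-binding protein, had effects of -1.29, -0.27 and 0.21 and a difference of -0.99 (SE 0.19, adjusted p = 0.0316). Per3, a clock gene, and Sfpq, a splicing factor, were lower in Tg-/- mice (effects -1.02 and -1.04). Their Stg effects also passed the unadjusted limit (0.99 and 0.44), and the differences were -1.55 and -0.91. Per3 averaged 59.7 in Stg-/- and 29.0 in Stg+/+ mice, beside 69.9 in Tg+/+ and 57.1 in Lh+/+ mice. Sfpq averaged 167 and 121, beside 235 and 151 in the same order. For Per3, Sfpq, Ptp4a2 and Itgb1bp1, the Stg+/+ mean lay farther than the Stg-/- mean from the mean of Tg+/+ and Lh+/+ mice. The Per3 call was lost without any 1 of 7 arrays and with no filter on low signals, and held without the 3 arrays of high Prl (-1.93). The Ptp4a2 call was lost without any 1 of 14 arrays, and those of Itgb1bp1 and Sfpq held with 7 and 16 of the 18 arrays left out in turn. Without the 3 arrays of high Prl, F2r was at -1.56 (adjusted p = 0.0705), Sfpq at -0.97 (0.0903), Ptp4a2 at -0.91 (0.171) and Itgb1bp1 at -0.69 (0.275), none of which passed. Other probe sets of Per3 (-0.66 to -0.06) and Sfpq (-0.30 to 0.22) were not called.

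Seen from each side, most transcripts of one side leaned the same way on the other. In Stg 352 probe sets (1.30%) were called. Of the 350 that are not of Cacng2, 275 (78.6%) had the same sign in the mean effect of Tg and Lh, against 52.5% of all probe sets tested. That mean effect was itself called for 43 of the 350, with the same sign in 40, and the difference of effects for 57. The median size of the Stg effect among the 350 was 0.77, and the median of the Tg and Lh mean in the same direction was 0.14. Of the 207 called in the mean of Tg and Lh, 150 (72.5%) had the same sign in Stg, with medians of 0.57 and, in that direction, 0.19. The difference of effects was called for 24 of the 207. Where it was not called, a difference was not shown, which does not make the effects equal.

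Gene lists held few called members, where 0.402% of all genes were called with 1 probe set per gene. None of the 16 Purkinje cell markers was called, 2 of 16 had a positive difference, and their median was -0.32, from medians of 0.00 in Tg, -0.09 in Lh and 0.31 in Stg, beside -0.01 for all genes. Calb1 was at -0.38 (adjusted p = 0.298), Pcp2 at -0.37 (adjusted p = 0.461) and Itpka at -0.74 (adjusted p = 0.291). Summed over the 16 markers, signal was 52268 to 57254 in Stg-/- and 41245 to 51134 in Stg+/+ mice, and the ranges of -/- and +/+ overlapped in Tg and Lh. Summed granule cell markers (17 genes) were 47254 to 50442 in Tg-/- and 50326 to 54822 in Tg+/+ mice, and 40515 to 43736 in Lh-/- and 49585 to 54469 in Lh+/+ mice. In Stg that sum was 43209 to 45895 in -/- and 46194 to 52719 in +/+ mice, so -/- and +/+ mice did not overlap in Lh and Stg and overlapped in Tg. Calb2 was the called one of these 17, and the part of these sums in the results on single genes was not tested.

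AMPA receptor subunits, which stargazin carries to synapses, and their partners had 0 of 16 called, 3 above 0 and a median of -0.12; Gria2 was at -0.06 and Gria4 at -0.20. Calcium channel pore genes had 0 of 6 called, with Cacna1g at -0.55 (adjusted p = 0.155) and Cacna1d at -0.48 (adjusted p = 0.431). Of 11 auxiliary subunit genes Cacng2 was the called one, and Cacna2d3 was at -0.43 (adjusted p = 0.265). Activity-regulated genes had 0 of 27 called, with a median of 0.18 and medians of -0.32 in Tg, -0.03 in Lh and -0.36 in Stg; Jun was at 0.67 (adjusted p = 0.137) and Bdnf at 0.92 (adjusted p = 0.327). All 10 antigen presentation genes lay above 0, with a median of 0.45, and none was called; H2-K1 was at 1.84 (adjusted p = 0.246). Beside them, summed microglia markers (14 genes) were 2166 to 2419 in Tg-/- and 1810.2 to 1968 in Tg+/+ mice, 2298 to 2442 in Lh-/- and 1644 to 1859 in Lh+/+ mice, without overlap. In Stg that sum was 1799.7 to 2251 in Stg-/- and 1658 to 1832 in Stg+/+ mice, with overlap. The 11 tested microglia markers had medians of 0.29 in Tg, 0.42 in Lh and 0.24 in Stg and of 0.09 in the difference, 9 above 0 and none called, and their part in the antigen presentation values was not tested. Choroid plexus and meninges markers had medians of 0.07 in Tg, 0.88 in Lh and 0.34 in Stg, with 0 of 16 called, and their lowest summed signals were in Stg+/+ (14822) and Lh+/+ (15959.9) mice. Limma made these calls over all 27022 probe sets, among which 2419 had an unadjusted p below 0.05.

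**Figure D5:**
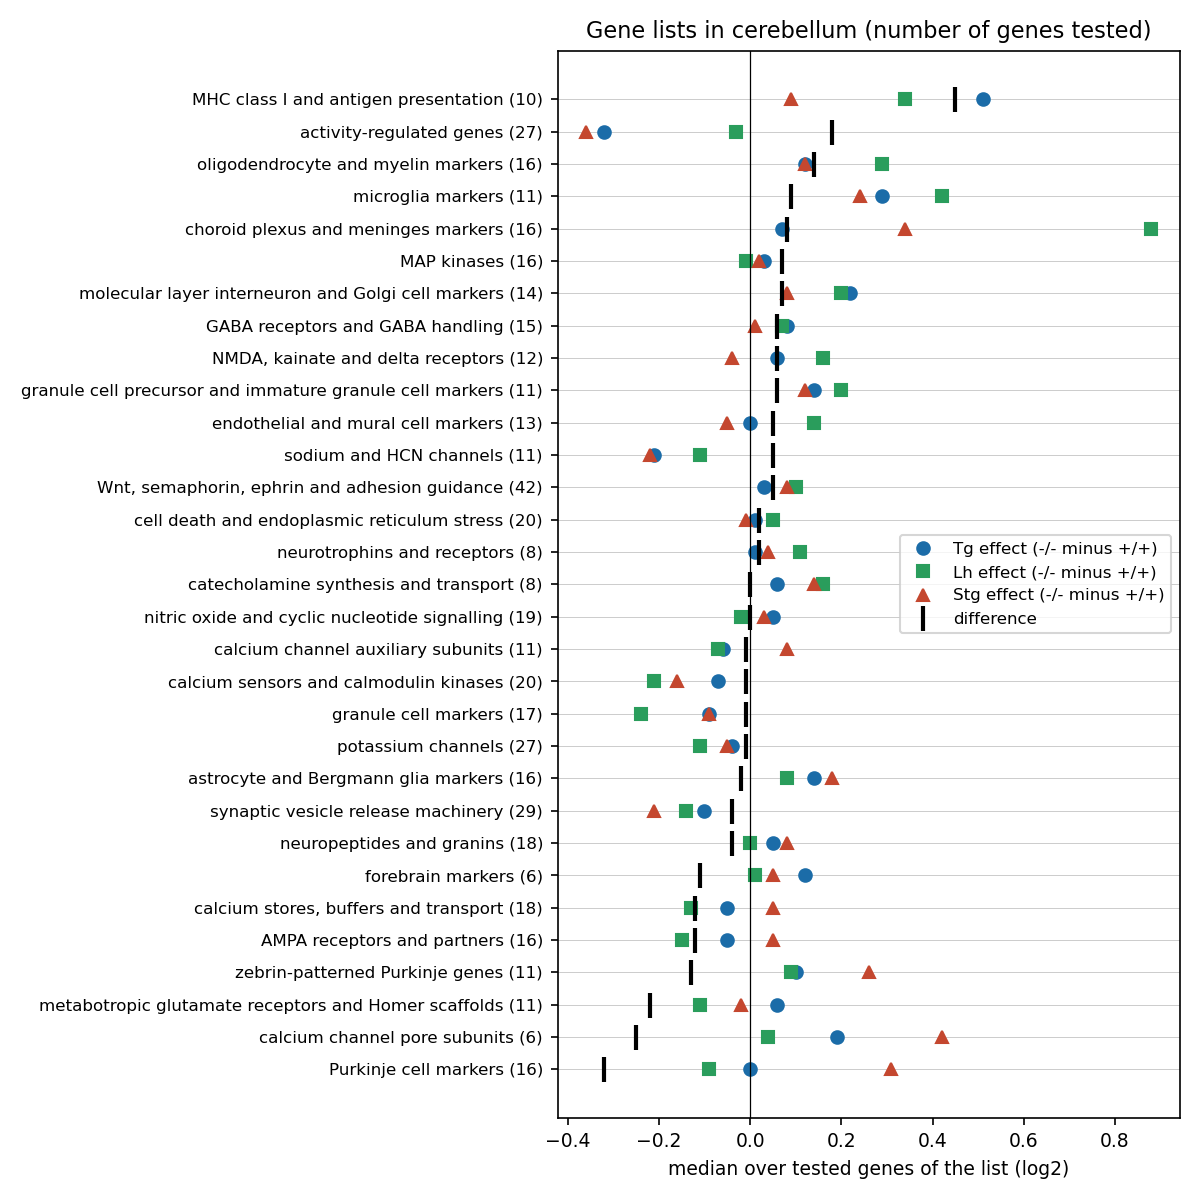
Median log2 effect of the measured genes of each of 31 lists with at least 6 genes, with a circle for Tg, a square for Lh, a triangle for Stg and a black bar for the difference, the mean of Tg and Lh minus Stg. Purkinje cell markers have the lowest median difference at -0.32 and antigen presentation genes the highest at 0.45, beside a median of all genes of -0.01.

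Genes close to the mutated genes were counted, since a mutant line can carry flanking segments of another strain. Within 10 Mb of Cacng2 (chr15:77991919-78120220, GRCm38.p6), 0 of 291 other probe sets were called in the difference, against 0.278% of all. In the Stg effect itself 7 of these 291 were called, where 1.30% of all were. Outside this window, chromosome 15 also holds Mapk12 (from base 89130584), Aqp6 (from 99598468) and Ncald (from 37366175), each called in the difference. Around Cacna1a (chr8:84338631-84640251) the count was 0 of 208 in the difference and 3 in the Tg effect, where 0.574% of all were called. Near Cacnb4 (chr2:52428320-52676609) it was 2 of 86, or 2.33%, and these were Kcnj3 and the glycosyltransferase gene Galnt13, named after its value was seen (0.81). Of the same 86, 1 was called in the Lh effect (0.155% of all) and 4 in the Stg effect. The Galnt13 call held with 3 of the 18 arrays left out in turn and was at 0.86 without the 3 arrays of high Prl (adjusted p = 0.141). For both genes the effect lay in Stg (-0.82 for Kcnj3 and -1.09 for Galnt13), while the Lh effects were 0.16 and -0.15.

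In forebrain the same contrast called 2 probe sets of 27022 (0.00740%), both of Cacng2, at 5.15 (SE 0.27, adjusted p = 4.54e-09) and 3.60, and 843 had an unadjusted p below 0.05. Th was at 0.09 in forebrain, Tac1 at -0.17, Scg2 at -0.10 and Nos1 at -0.26. Of the 75 probe sets called in cerebellum 67 were tested in forebrain. Leaving out Cacng2, 41 of 65 had the same sign there, between -1.67 and 0.40, and 12 had an unadjusted p below 0.05, each with the sign it had in cerebellum. Hrk was at 0.40 (unadjusted p = 0.0470), Calb2 at -0.52 (unadjusted p = 0.00821) and Mtm1 at -1.37 (unadjusted p = 0.00156). After Cacng2, the genes with the smallest forebrain p were P3h2 (-1.88), Nxpe4 (1.13), Ptp4a2 (-0.98) and Ttc9 (0.95), each with an adjusted p of 0.882.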

How the data were processed

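The values were the authors' deposited signal intensity of each probe set on 1-colour Affymetrix arrays, linear and never below 0.0223. Every array had the same mean of 150 after trimming 2% of probe sets at each end, so the authors scaled the arrays alike. The sources used here do not name the software that made the intensities, and the number of arrays, 3 per group, limits the precision. A constant of 2.98 (the 10th percentile) was added before log2. After leaving out 64 control probe sets, the 27022 with a mean above the 40th percentile were tested with limma 3.58.1 in R 4.3.3, using 1 mean per group, an intensity trend and Benjamini-Hochberg adjustment over all of them. The fit was tested on simulated data. The 34958 probe sets with 1 gene symbol in the platform annotation could be named, 932 with several and 9211 with none could not.

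The genes named are the mutated genes, the 15 largest differences in each direction and at most the 15 largest of the shared and Stg-alone classes. Added to these are at most 4 called members of each gene list. So are at most 8 genes with the smallest p for the mean effect, for Tg against Lh and for forebrain. Members, classes and lists were chosen with earlier results of these data known. Filters, constants, normalization, array weights, blocks and left-out arrays were varied, as given in the closing section.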

Additional observations from a re-analysis of the deposited data

Results flagged for a closer look

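The tests of a difference between lines singled out the 75 cerebellar probe sets whose Tg and Lh mean effect differed from the Stg effect, described above. They also singled out 11 probe sets (0.0407% of 27022) whose Tg and Lh effects differed from each other. These are places where the mean of Tg and Lh stands for neither line. The largest was Mtrex, an RNA helicase gene, with a Tg effect minus Lh effect of -4.14 (SE 0.65, adjusted p = 0.0325). Mtrex had 0.835, 9.58 and 2.45 in Tg-/- against 80.9, 120.2 and 108 in Tg+/+ mice. Both Lh groups were as low as Tg-/- mice, at 1.14 to 11.1, and both Stg groups as high as Tg+/+ mice, at 79.1 to 128. F2r followed the same layout and was at -1.70. Fam199x was at 2.16, through low Lh-/- arrays (24.6, 27.4 and 61.1, against 129, 153 and 194 in Lh+/+ mice). The others were 4833420G17Rik at 2.09, Nxpe4 at 2.13, Ptp4a2 at -1.31 and Sfpq at -1.14. Nxpe4 had 181, 140.1 and 127 in Tg-/- and 38.9, 32.8 and 27.9 in Tg+/+ mice, and its Tg effect in forebrain was 1.69. The part of strain in these levels was not tested.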

How the results depend on the processing

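Of 46 named probe sets called in the cerebellar difference, 15 passed in every alternative that tested them and with each array left out, and 0 changed sign. The 75 calls were 62 to 85 with other filters, constants or quantile normalization. Leaving out the intensity trend gave 45 (mean of Tg and Lh 112, Tg against Lh 0, shared 10, Stg alone 18). Array weights gave 171 (415, 31, 35 and 68 in the same order), and a block for the run of records 241 (533, 38, 40 and 102). The replicate block gave 567 (738, 101, 94 and 206), holding all 75. These blocks left the differences unchanged and altered only their spread. Same-numbered -/- and +/+ arrays of a line, which also shared sex and run of records, deviated together with r between 0.0404 and 0.380, over 0.1 in 7 of 9 pairs and highest with their own number in 8. The labels do not say that a number pairs animals. Without the 3 arrays of highest Prl, chosen after seeing the data, the counts were 57, 133, 1, 10 and 26. Leaving out 1 array at a time gave 42 (without Stg+/+ replicate 1) to 90 for the difference, 109 (without Tg-/- replicate 2) to 242 for the mean of Tg and Lh, and 0 to 20 for Tg against Lh. It gave 11 (without Tg-/- replicate 3) to 20 for the shared class and 15 (without Stg+/+ replicate 1) to 37 for Stg alone, which was 17 without Stg-/- replicate 3 and 18 without Lh-/- replicate 3. Counts for Tg against Lh are limma's, and 1280 probe sets had an unadjusted p below 0.05. The forebrain count was 2 or 3 throughout. The cause of these moves was not tested. Signals near the constant, as in Cacng2, Mapk13 and Mtrex, limit the size of their effects.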

Other observations

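Of the 8 genes with the smallest p for the mean effect of Tg and Lh, Th, Tac1, Hrk and F2r had a called difference from Stg and are described above, and the other 4 had none. Stap2, a signalling adaptor, had a mean Tg and Lh effect of -0.92 (SE 0.08, adjusted p = 2.20e-05) and a Stg effect of -0.74 (adjusted p = 0.00205), with a difference of -0.18 (adjusted p = 0.799). Rbfox1, a neuronal splicing regulator, was at -0.59 (adjusted p = 0.000105) beside -0.46 in Stg (adjusted p = 0.00751), with a difference of -0.12 (adjusted p = 0.811). For Tpd52l1 the mean effect was 1.11 (adjusted p = 0.000137) beside 0.37 in Stg (adjusted p = 0.440), and for the calcium-dependent kinase Camkk2 it was -0.62 (adjusted p = 0.000199) beside -0.17 (adjusted p = 0.603). The Stg effects of Tpd52l1 and Camkk2 thus did not pass. Their differences, 0.74 (unadjusted p = 0.00232, adjusted p = 0.187) and -0.46 (unadjusted p = 0.00172, adjusted p = 0.158), did not pass over all probe sets either.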
